A study of Mus musculus with 12 samples.

Results

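Plac9a, Plac9b, Gm9780, Duxbl1, Duxbl2, Duxbl3 and Tmem254c lie side by side on chromosome 14 of the mouse and are copies from 1 tandemly repeated stretch of DNA. These 7 genes, of 25093 in the count table, were taken by symbol. They were chosen because they are near-identical neighbors whose levels differed between the genotypes of this study, so their own difference between genotypes is described here without a test. All 7 were higher in every library of Gli3-deleted quiescent satellite cells (QSCs) than in any control library. The 3 Plac9 copies together went from 3.20 ± 0.278 to 154 ± 20.4 CPM (counts scaled to a common library size, mean ± SD, n = 3 libraries per genotype), and the 3 Duxbl copies from 3.70 ± 0.698 to 25.98 ± 2.34 CPM.

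Satellite cells, the muscle stem cells, came from uninjured hindlimb muscles of mice 3 to 4 months old, sorted as α7-Integrin+ and CD34+ cells that were negative for CD31, CD45, SCA1 and CD11b. Control mice were Pax7-CreERT2/+;Gli3+/+;R26R-YFP (here Gli3+/+), and mice with deletion were Pax7-CreERT2/+;Gli3fl/fl;R26R-YFP (here Gli3Δ/Δ). Both genotypes therefore carry the tamoxifen-inducible recombinase made by Pax7-expressing cells and the YFP reporter, both were given tamoxifen by injection and then in the diet, and the animals were of a mixed 129SV and C57BL/6 background. Each genotype had 3 QSC libraries, each made from the pooled cells of 2 to 3 mice, and libraries of activated satellite cells from injured muscle were not used here. The Gli3+/+ libraries held 39556730, 65340009 and 47007005 estimated counts and the Gli3Δ/Δ libraries 51913900, 65750087 and 50417581. Values below are CPM after TMM scaling (edgeR), and intervals and p-values cover the spread between these pools only.

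Plac9 encodes a small secreted protein first found in placenta and known from fibroblast-like cells. Duxbl encodes a double homeobox protein, a type of DNA-binding factor whose relatives act in the early embryo, and it has been described in myogenic cells. Tmem254 encodes a small membrane protein whose function is little known. Genes that arose by duplication can keep the same sequence, in which case a short sequencing read fits every copy and must be shared among them by a statistical model.

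The repeated stretch has 3 units on GRCm38 (positions from GENCODE vM21). Each holds, in order, a Plac9 copy and a Tmem254 copy on the minus strand, a Cphx homeobox gene and a Duxbl copy on the plus strand. The first unit has Plac9a (25887506 to 25903100), Tmem254a (25923300 to 25927672), Cphx1 (25938304 to 25956356) and Duxbl1 (25978577 to 25990088). The second has Gm9780 (26027282 to 26042711), which RefSeq also lists under the name Plac9, then Tmem254c (26063919 to 26067355) and Duxbl2 (26118349 to 26129763). The third has Plac9b (26167405 to 26182480), Tmem254b (26203369 to 26207041) and Duxbl3 (26257962 to 26269436). The units are evenly spaced, since neighboring copies of these 3 families start between 139.4 and 140.6 kb apart. After the first and the second unit stand the pseudogenes Gm2260 (26016431 to 26025837) and Gm2274 (26156036 to 26163648), whose sequence comes from Anxa11, the annexin gene on the left flank.

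The coding sequences are the same in all 3 copies of each family. No base differs among the 327 coding bases of Plac9a, Gm9780 and Plac9b, among the 390 of Tmem254a, Tmem254c and Tmem254b, or among the 1053 of Duxbl1, Duxbl2 and Duxbl3. The first 75 coding bases of each family, the number of cycles sequenced, are shown to make plain that a read from here cannot be placed in 1 copy, with the start codon in capitals:
Plac9 copies: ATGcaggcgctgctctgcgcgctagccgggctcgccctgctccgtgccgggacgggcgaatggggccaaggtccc
Duxbl copies: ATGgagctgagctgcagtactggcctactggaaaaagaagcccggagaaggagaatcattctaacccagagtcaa
Tmem254 copies: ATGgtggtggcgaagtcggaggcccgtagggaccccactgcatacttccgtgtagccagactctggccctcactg

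Only small parts of the transcripts outside the coding sequence told the copies apart. Of all words of 31 bases in a gene's transcripts, 0.343% were found in no other gene for Plac9a, 0.583% for Gm9780 and 3.45% for Plac9b. The share was 3.89% for Duxbl1, 0% for Duxbl2 and 6.56% for Duxbl3, and 0% for Tmem254c. Duxbl2 had all of its words in common with Duxbl3, and Tmem254c all of its words in common with Tmem254a. For this reason the level of a single copy is uncertain, and the sum over a family is the firmer quantity. By comparison, Anxa11 had 82.8% unique words and Slmap, on the right flank, 100%.

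The sequence before the start of Plac9 is duplicated too. RefSeq windows (GRCm38.p6) from 250 bases before to 50 after the start were at hand for 4 of the 7 members, Plac9a, Gm9780, Plac9b and Tmem254c. The stretch before every annotated transcript start is printed for Gm9780, at chr14:26042867-26042987 on the minus strand, to show the promoter sequence that the copies have in common. Capitals mark the 43 bases that fall within the window of Plac9a and are the same there; that window ends where the capitals begin, so the lower-case bases were not compared with Plac9a:
Gm9780: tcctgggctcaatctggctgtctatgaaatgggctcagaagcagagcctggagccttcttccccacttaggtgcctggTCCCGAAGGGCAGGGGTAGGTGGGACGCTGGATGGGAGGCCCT
The same 121 bases precede Plac9b at chr14:26182481-26182601, with no difference. A run of 222 bases, the whole overlap of the windows of all 3 copies, was identical, the RefSeq start of Plac9a being placed farther downstream. The GLI binding motif GACCACCCA, searched on both strands, occurred in 83 of 32851 windows of all genes (0.253%) and in none of the windows of the 4 members, which says only that these letters are not in these windows.

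Gli3, the gene deleted by the recombinase, was counted at 11.2, 9.71 and 9.75 CPM in the Gli3+/+ libraries and at 9.54, 10.5 and 6.25 CPM in the Gli3Δ/Δ libraries. The groups overlapped, and the log2 fold change was -0.22 (SE 0.22, adjusted p = 0.916 in edgeR's quasi-likelihood test). The recombined allele lacks exon 8 and can still be transcribed, so a count over the whole gene does not check the deletion. The authors report that they checked the excision by RT-qPCR in QSCs and by Western blot in myoblasts.

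Plac9b was the most abundant member after deletion, while in the controls Tmem254c had the highest mean (2.79 CPM, against 1.89 for Plac9b). Plac9b was at 1.84, 2.61 and 1.23 CPM in the Gli3+/+ libraries, from 74, 176 and 53 counts, and at 95.0, 81.8 and 109 CPM in the Gli3Δ/Δ libraries, from 4977, 5479 and 5524 counts. The log2 ratio of the means was 5.58 (with 0.1 CPM added to each mean, as for all ratios given here), and the lowest Gli3Δ/Δ library stood 31.3 times above the highest Gli3+/+ library. Gm9780, the copy without a Plac9 symbol in the table, was at 1.07, 0.356 and 2.02 CPM in the controls and at 59.2, 43.4 and 53.5 CPM after deletion, a log2 ratio of 5.39. Plac9a was counted at 0, 0.267 and 0.209 CPM and at 8.45, 5.30 and 6.14 CPM, a log2 ratio of 4.70. Its 0 in the first Gli3+/+ library allows up to 0.0758 CPM (3 counts, counting error only). The 3 copies thus kept 1 order in the mean level of the Gli3Δ/Δ libraries, Plac9b above Gm9780 above Plac9a, whether as CPM or per kb of exon (74.2, 37.1 and 3.79 CPM per kb).

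The Duxbl copies were higher by a smaller ratio. Duxbl2 was at 2.31, 1.2 and 2.00 CPM in the Gli3+/+ libraries and at 15.6, 16.9 and 17.6 CPM in the Gli3Δ/Δ libraries, a log2 ratio of 3.12. For Duxbl1 the values were 2.01, 1.76 and 1.39 CPM against 10.4, 5.22 and 7.99 CPM, a log2 ratio of 2.13 and the least separated of the members, with the lowest Gli3Δ/Δ library 2.60 times above the highest control. Duxbl3 was counted at 0.149, 0.148 and 0.116 CPM against 1.51, 1.12 and 1.48 CPM, a log2 ratio of 2.63, from only 5 to 10 counts per control library. Per kb of exon in the Gli3Δ/Δ libraries, Duxbl2 was at 3.44 CPM, Duxbl1 at 1.65 and Duxbl3 at 0.263, all below the 3 Plac9 copies. Tmem254c, the only Tmem254 copy among the 7 members, was at 4.62, 2.95 and 0.812 CPM in the controls and at 29.3, 23.9 and 30.7 CPM after deletion. Its log2 ratio was 3.28, and its control libraries were the most scattered of the members in absolute terms (SD 1.91 CPM).

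**Figure D1:**
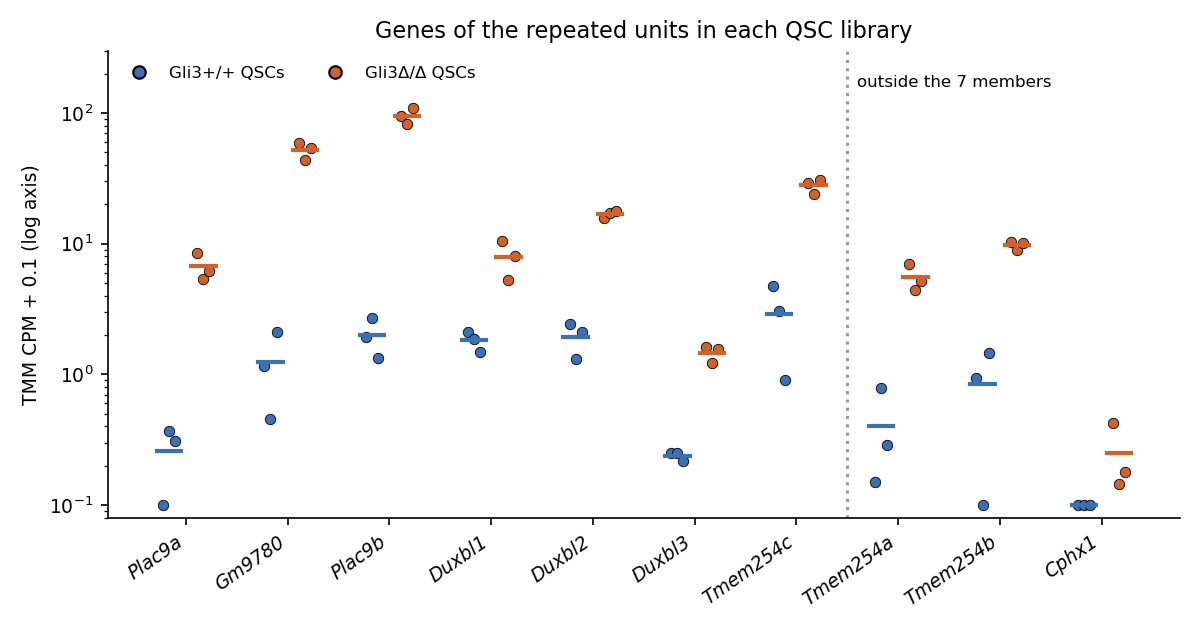
TMM CPM plus 0.1 (log axis) of the genes of the repeated units in each QSC library, with Gli3+/+ in blue, Gli3Δ/Δ in orange and bars at the group means; the dotted line parts the 7 members from other genes of the units. For every member the 3 Gli3Δ/Δ points lie above the 3 Gli3+/+ points, with the widest gaps at Plac9b and Gm9780.

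All 7 members passed the call for a rise in the fit over all genes, where 0.351% of the 25093 genes were called, 0.187% as higher (47 genes) and 0.163% as lower (41 genes), and all 7 had higher groups that did not overlap, against 6.39% of all genes. Since the members were chosen from this contrast, nothing is read from these counts. As a description, among the 14682 genes with a mean of at least 1 CPM, Plac9b had the 6th highest log2 ratio, Gm9780 the 7th and Plac9a the 11th, while Tmem254c stood at 26, Duxbl2 at 27 and Duxbl1 at 42. Duxbl3 fell below that mean and was not ranked. Plac9a, at a mean of 0.159 CPM in the controls, reached it only through its Gli3Δ/Δ libraries.

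Sums over a family do not depend on how reads were divided within it. Plac9a, Gm9780 and Plac9b added up to 2.91, 3.23 and 3.46 CPM in the Gli3+/+ libraries and to 163, 130 and 168 CPM in the Gli3Δ/Δ libraries, a log2 ratio of 5.54. Without Gm9780 the sum of the 2 copies named Plac9 was 2.05 ± 0.742 CPM against 102 ± 13.9 CPM (SD, n = 3), a log2 ratio of 5.57. The Duxbl copies summed to 4.47, 3.11 and 3.50 CPM against 27.5, 23.3 and 27.1 CPM, a log2 ratio of 2.78. The Tmem254 copies, of which only Tmem254c is a member, summed to 5.51, 3.63 and 2.37 CPM against 46.3, 37.1 and 45.8 CPM, a log2 ratio of 3.45. In all 3 families the second Gli3Δ/Δ library was the lowest of its group, and it remained far above every control.

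The division of counts among the copies of Plac9 and Tmem254 was more scattered in the controls than after deletion, whereas that of Duxbl was about as scattered in both. Plac9b took 63.2%, 80.7% and 35.6% of the Plac9 sum in the Gli3+/+ libraries but 58.4%, 62.7% and 64.6% in the Gli3Δ/Δ libraries. Tmem254b took 15.3%, 0% and 57.8% of its family's sum in the controls and 22.0%, 23.9% and 21.8% after deletion. These control sums rest on 101 to 245 counts per library, whereas the Gli3Δ/Δ sums rest on 2327 to 8742. Duxbl2 held 51.7%, 38.6% and 57.0% of the Duxbl sum in the controls and 56.6%, 72.8% and 65.1% after deletion, so that its ranges overlapped. Duxbl1 held 45%, 56.7% and 39.7% in the controls and 37.9%, 22.4% and 29.5% after deletion, and Duxbl3, the least of its family in every library, held 3.33%, 4.76% and 3.31% against 5.47%, 4.80% and 5.44%. The ranges of these 2 copies did not overlap between genotypes, the share being lower after deletion for Duxbl1 and higher for Duxbl3. For Duxbl3 the ranges all but met, at 4.76% and 4.80%, and its control shares rest on only 6, 10 and 5 counts. The division itself comes from the authors' read assignment.

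**Figure D2:**
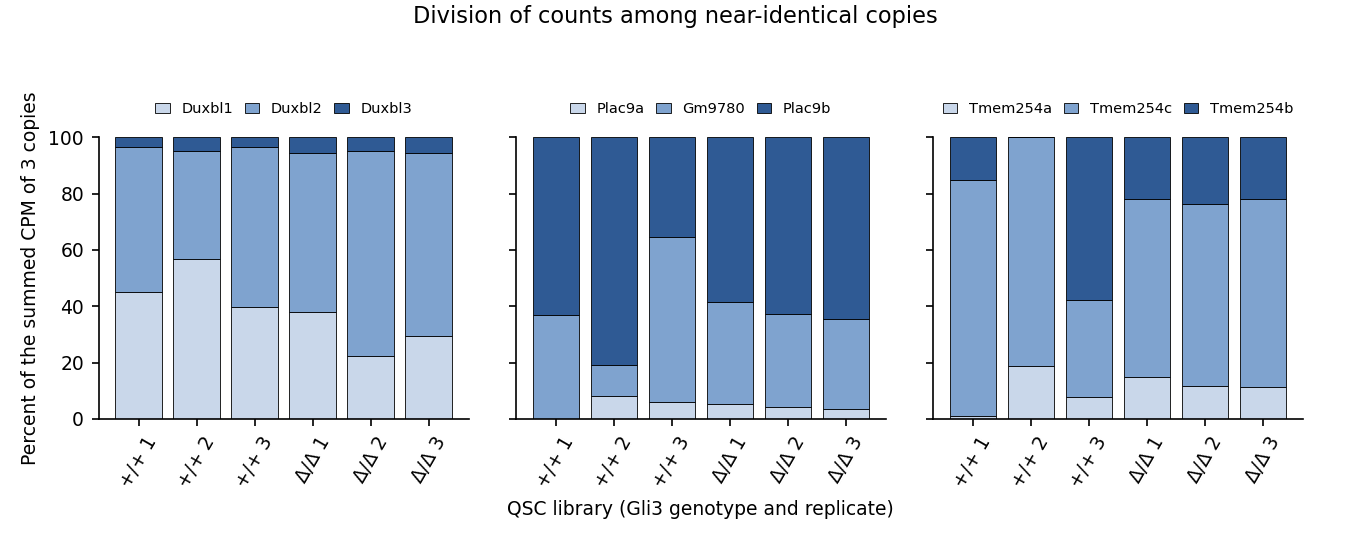
Percent of the summed CPM of 3 copies assigned to each copy of Duxbl, Plac9 and Tmem254 (stacked bars, left to right) in each QSC library. The Plac9 and Tmem254 bars differ among the Gli3+/+ libraries and are nearly alike among the Gli3Δ/Δ libraries.

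Other genes, 5 in all, of the repeated units were in the count table and are not members. Members were chosen for differing between genotypes, and all of them passed the call. Genes left outside may have been left out for missing it, so nothing is read from these 5 not passing. The 5 genes fall into 2 kinds. Tmem254a and Tmem254b were higher in every Gli3Δ/Δ library than in any control, and Cphx1 was counted in the Gli3Δ/Δ libraries only, at 3 and 4 counts in 2 of them, near the floor. In contrast, the Anxa11-like pseudogenes Gm2260 and Gm2274, which stand between the units, were at like levels in both genotypes. None of the 5 passed the edgeR test (3 had an unadjusted p under 0.05), DESeq2 called 1, Tmem254a, and limma-voom 0. Of all 25093 genes, edgeR called 0.351% and 7.11% had an unadjusted p under 0.05, while DESeq2 called 384 and limma-voom 73. Tmem254a was at 0.0497, 0.682 and 0.186 CPM in the controls and at 6.87, 4.36 and 5.11 CPM after deletion (log2 fold change 4.05, SE 0.66, adjusted p = 0.0528 in edgeR and 1.05e-09 in DESeq2). It was called in edgeR when the first or the second Gli3+/+ library was left out (adjusted p = 0.0304 and 0.00474). For Tmem254b the values were 0.844, 0 and 1.37 CPM against 10.2, 8.85 and 9.97 CPM (log2 fold change 3.76, SE 0.91, edgeR adjusted p = 0.234), and the edgeR adjusted p was 0.00472 without the second Gli3+/+ library. Tmem254a has 27.1% unique words and Tmem254b 0%, so both share reads with Tmem254c and are no independent measure of it.

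Cphx1, a homeobox gene of the early embryo, had 0 counts in all 3 Gli3+/+ libraries and 17, 3 and 4 counts in the Gli3Δ/Δ libraries. Pooled over each group, its Gli3Δ/Δ level was 7.23 times a floor of 3 counts over the control group. That value ignores the spread between libraries and the counting error of the Gli3Δ/Δ counts, so it is no lower bound. The edgeR test did not call Cphx1 (adjusted p = 0.468), and 17 of its 24 counts came from 1 library. The other Cphx copies were not in the count table.

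Gm2260 was at 26.6, 22.9 and 28.3 CPM in the Gli3+/+ libraries and at 27.8, 27.3 and 22.0 CPM in the Gli3Δ/Δ libraries (log2 fold change -0.01, SE 0.15, edgeR adjusted p = 1). Gm2274 was at 7.90, 15.1 and 7.08 CPM against 9.77, 11.3 and 13.4 CPM (log2 fold change 0.19, SE 0.29, edgeR adjusted p = 0.949). The groups of both overlapped. These pseudogenes share 100% and 98.8% of their words with Anxa11, so their counts may include reads of that gene.

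Next to the repeat, the genes of the flanks were mostly at the same level in both genotypes. Of the 21 flanking genes at 25 to 27 Mb in the table, edgeR called 0, with 3 (14.3%) at an unadjusted p under 0.05, beside 1785 of all 25093 genes (7.11%), while DESeq2 called 2 and limma-voom 0. Their median log2 fold change was 0.01, against -0.03 for all genes. Anxa11, the nearest gene on the left, was at 147, 167 and 170 CPM against 181, 161 and 157 CPM (log2 fold change 0.05, SE 0.13, edgeR adjusted p = 0.985). Gm34059, a long noncoding RNA and the nearest gene on the right, was at 0.515 ± 0.185 and 0.503 ± 0.295 CPM (SD, n = 3; edgeR adjusted p = 1). Slmap, a membrane-associated protein gene and the nearest protein-coding gene on that side, was at 91.2 ± 3.38 and 88.9 ± 8.05 CPM (SD, n = 3; log2 fold change -0.04, edgeR adjusted p = 0.989).

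Groups that did not overlap were found for 3 of the 21 flanking genes, or 14.3%, beside 13% of all genes. Ppif, which encodes the mitochondrial cyclophilin D, was at 27.8, 28.3 and 33.6 CPM in the controls and at 54.1, 46.6 and 59.1 CPM after deletion. Its log2 fold change was 0.83 (SE 0.15), with an adjusted p of 0.0744 in edgeR and 0.000216 in DESeq2, and leaving out the third Gli3+/+ library brought the edgeR value to 0.0377. Slmapos2, a long noncoding RNA, was at 8.44, 6.27 and 7.38 CPM against 14.4, 13.3 and 13.7 CPM (log2 fold change 0.91, SE 0.17, adjusted p = 0.0954 in edgeR and 0.00035 in DESeq2). Crb1-ps, a pseudogene, was at 0.992 ± 0.347 against 0.633 ± 0.0746 CPM (SD, n = 3; edgeR adjusted p = 0.826). Ppif and Slmapos2 have Zcchc24 and Anxa11, and Gm34059 and Crb1-ps, between them and the repeat, and neither Zcchc24 (log2 fold change 0.06, edgeR adjusted p = 0.982) nor the others were called.

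**Figure D3:**
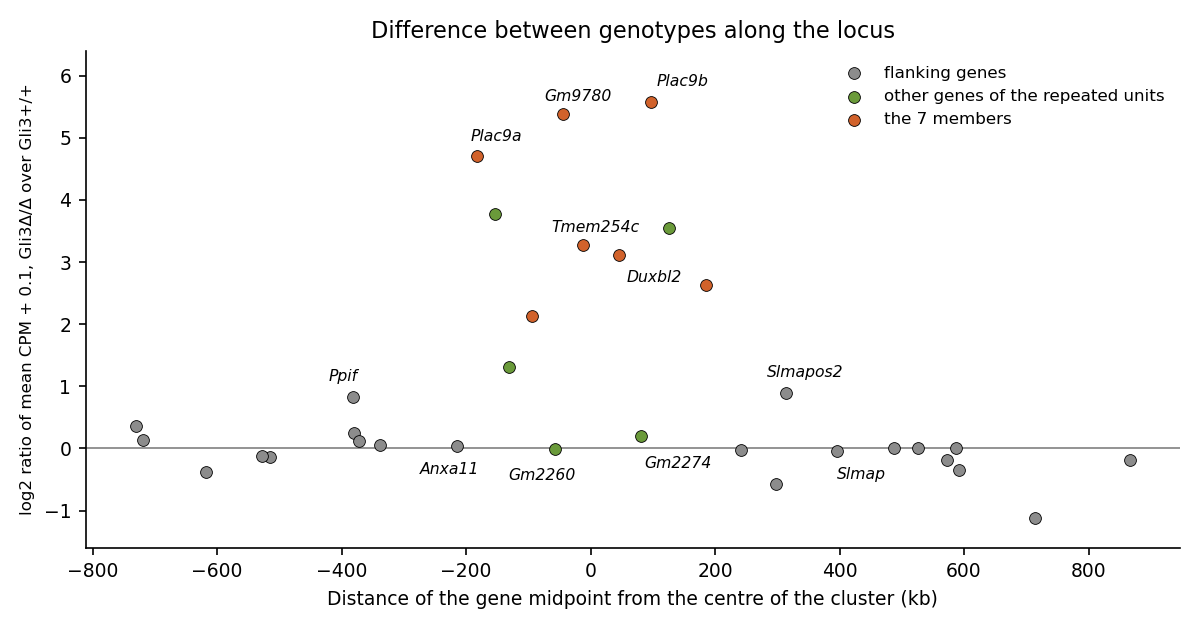
Log2 ratio of mean CPM plus 0.1, Gli3Δ/Δ over Gli3+/+, of the 33 genes in the window, against the distance of each gene's midpoint from the centre of the cluster in kb. Ratios above 2 occur within 200 kb of the centre only, at the members and at 2 other Tmem254 copies, while Gm2260, Gm2274 and most flanking genes lie near 0.

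**Figure D4:**
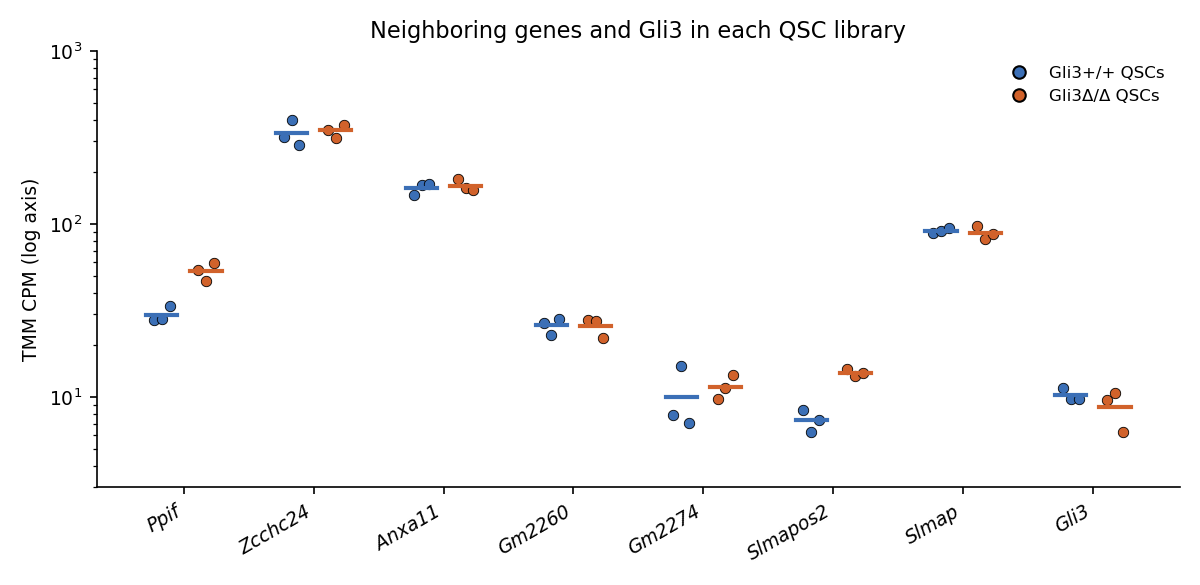
TMM CPM (log axis) of 7 neighboring genes and of Gli3 in each QSC library, with Gli3+/+ in blue, Gli3Δ/Δ in orange and bars at the group means. The points of the 2 genotypes are apart for Ppif and Slmapos2 and overlap for the other 6 genes.

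The share of genes called was also counted by how many of a gene's words were unique. With the 7 members left out, 18 of 1232 genes with at most 10% unique words were called by edgeR (1.46%), 22 of 2112 with 10% to 50% (1.04%), 19 of 5342 with 50% to 90% (0.356%) and 22 of 16387 with over 90% (0.134%). Among the protein-coding genes with at most 10% unique words, 4 of 339 were called. These are Gm16867, higher after deletion (log2 fold change 8.27), and Gm10260, Gm21541 and Gm2163, lower (log2 fold changes -8.03, -2.70 and -3.82). The part of read assignment in the difference at Plac9 and Duxbl was not tested.

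Other genes with related roles did not pass the test. Of 14 further homeobox genes of the early embryo, 2 were in the count table, Cphx1 and Nanog, and edgeR, DESeq2 and limma-voom called 0 (1 at an unadjusted p under 0.05, Cphx1). Nanog, a pluripotency factor, was at 0.535 ± 0.252 and 0.335 ± 0.141 CPM (SD, n = 3). Of 17 genes raised by DUX, a double homeobox relative, in 2-cell-like cells, 8 were in the table and 0 were called by any of the 3 tools, with 0 at an unadjusted p under 0.05. Their summed level was 2.79 ± 1.22 CPM in the controls and 2.50 ± 0.551 CPM after deletion, most of it from Sp110 and Usp17la, and Zscan4a, Zscan4d, Zscan4e and Usp17le had no counts in any of the 6 libraries. The placenta-named genes of other families, Plac1, Plac8 and Plet1, summed to 0.308 ± 0.192 and 0.230 ± 0.118 CPM (SD, n = 3), with 0 called by the 3 tools and 0 at an unadjusted p under 0.05.

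Duxbl has been described in myogenic cells, and the 16 myogenic genes listed were all in the table. EdgeR called 0 of them, with 3 of 16 at an unadjusted p under 0.05 (7.11% of all genes were), DESeq2 called 1, Myog, and limma-voom 0, and their median log2 fold change was -0.04 against -0.03 for all genes. Myog, the factor of terminal differentiation, was at 4.94, 2.61 and 6.31 CPM in the controls and at 14.2, 9.67 and 9.05 CPM after deletion (log2 fold change 1.25, SE 0.33, edgeR adjusted p = 0.297). Myh3, the embryonic myosin heavy chain, was at 0.713 ± 0.697 against 2.95 ± 1.41 CPM, and the adhesion gene Cdh15 at 305 ± 62.5 against 421 ± 55.9 CPM (SD, n = 3), both with groups that did not overlap and edgeR adjusted p-values of 0.446 and 0.648. The most abundant of the list were Sdc4, at 1529 ± 1026 against 1066 ± 290 CPM, where the third Gli3+/+ library stood apart at 2714 CPM, and Pax7, at 991 ± 92.7 against 967 ± 181 CPM.

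The markers of the sorted cells were high in all libraries. The 8 satellite cell markers summed to 5826, 5968 and 7965 CPM in the Gli3+/+ libraries and to 6170, 6063 and 6010 CPM in the Gli3Δ/Δ libraries, led by Chodl and Sdc4, and 0 were called by the 3 tools (1 at an unadjusted p under 0.05). In bulk samples, fewer cells of a type and less RNA per cell cannot be told apart. Fibro-adipogenic progenitors are fibroblast-like cells of muscle that carry SCA1, which the sort was gated against, as it was against the endothelial marker CD31 and the leukocyte markers CD45 and CD11b. Their 10 listed markers summed to 3233, 2541 and 4580 CPM against 4010, 4135 and 4238 CPM, most of it Col3a1 (2684 ± 855 against 3315 ± 94.8 CPM). Dpt was at 423 ± 46.3 and 507 ± 33.5 CPM and Dcn at 75.6 ± 12 and 96.2 ± 12.8 CPM, whereas the defining gene Pdgfra was at 2.39 ± 1.22 and 1.91 ± 0.0832 CPM, Lum was at 2.86 ± 1.57 and 2.49 ± 0.333 CPM and Cd248 at 0.834 ± 0.447 and 0.794 ± 0.292 CPM (SD, n = 3). EdgeR called 0 of the 10 (1 at an unadjusted p under 0.05), DESeq2 called Pi16, which was lower after deletion, and limma-voom 0.

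Markers of Schwann cells, the glia of peripheral nerve, were also listed. The myelin gene Mbp was at 29.3, 23.0 and 36.7 CPM in the controls and at 10.3, 19.5 and 17.3 CPM after deletion (edgeR adjusted p = 0.375), and Sox10, a transcription factor of glia, at 3.86 ± 0.848 against 1.78 ± 0.502 CPM (SD, n = 3; edgeR adjusted p = 0.337, called by DESeq2). Both were lower in every Gli3Δ/Δ library than in any control, and limma-voom called neither. The summed markers of the other cell types overlapped between genotypes, with 19.5 ± 1.60 and 17.2 ± 1.89 CPM for 4 tenocyte genes (Scx the most abundant), 1940 ± 376 and 2076 ± 510 CPM for 7 mural genes (Notch3), 183 ± 34.2 and 155 ± 16.5 CPM for 6 endothelial genes (Tek), 16.7 ± 8.2 and 13.1 ± 3.22 CPM for 6 leukocyte genes (Cd68) and 52.3 ± 7.53 and 59.0 ± 11.9 CPM for 6 myofiber genes (Acta1). The 3 tools called 0 of these. In edgeR, 3 of the 7 mural genes and 1 of the 6 myofiber genes had an unadjusted p under 0.05, beside 7.11% of all genes. The mural genes were Rgs5 (31.3 ± 11.4 against 16.4 ± 7.37 CPM) and Myh11 (20.2 ± 12.6 against 7.12 ± 2.95 CPM), lower after deletion, and Cspg4 (14.8 ± 0.715 against 19.9 ± 3.75 CPM), higher. Most of the mural sum was Notch3, at 1660 ± 427 against 1863 ± 516 CPM (SD, n = 3). The myofiber gene was Myh1, higher after deletion. Xist was at 1.58 ± 0.286 and 1.00 ± 0.330 CPM and Ddx3y at 163 ± 34.8 and 149 ± 22.1 CPM, so that Y-linked genes were present in all pools. Uty, also Y-linked, was higher in all Gli3Δ/Δ libraries, at 44.5 ± 4.28 against 67.2 ± 7.17 CPM (SD, n = 3; adjusted p = 0.219 in edgeR, called by DESeq2). The part of these markers in the difference at Plac9 and Duxbl was not tested.

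The genes whose pattern over the 6 libraries was most like the sum of Plac9a and Plac9b, without Gm9780, lay on other chromosomes. By Pearson's r of log2(CPM + 1) among 14690 genes, these were Rps2-ps10 (r = 0.998), a ribosomal protein pseudogene at 59.8 and 592 CPM in the means of Gli3+/+ and Gli3Δ/Δ libraries, C1qtnf12 (r = 0.997, 6.59 and 14.8 CPM), Prss41, Gm14292 and Pea15a. For the Duxbl sum they were Gm9825 (r = 0.999), Glo1 (r = 0.996), the glyoxalase that clears methylglyoxal, Afap1l2, Ano1 and Myzap. The 6 points form 2 clusters, 1 per genotype, so that any gene well separated between genotypes scores high, and r is given here as a description only.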

How the data were processed

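The authors assigned reads to GRCm38 transcripts (GENCODE vM19) with Salmon v0.13.1, which shares reads that fit several copies, and deposited estimated counts per gene without normalization, after a filter of at least 5 reads in 2 samples. Libraries were stranded and poly(A)-selected from 20 ng of RNA. The deposited comparison tables, which also hold a mean signal per gene and the authors' own fold changes and p-values, served for symbols and biotypes only. The 6 columns of activated cells match no label and were not used here.

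Counts of the 6 QSC libraries were rounded and fitted with edgeR 4.0.16 (R 4.3.3; TMM, quasi-likelihood, Benjamini-Hochberg over 25093 genes). Genes were called where the adjusted p was below 0.05 and the change reached 1.2-fold. Members and lists were chosen with earlier results of these data known. Named were the members, their sums, neighbors called or without overlap of groups and the nearest on either side, the 5 genes most like each sum, and listed genes called or most abundant; other listed genes, such as Myh3, Cdh15 and the defining markers, were chosen after their values were seen. Some listed markers are not reported here. Adding Gm9780 to the Plac9 sum was also chosen then, but the genes most like Plac9 were sought without Gm9780. Words of 31 bases came from GENCODE vM21 transcripts, and edlib 1.3.9.post1 compared copies. Alternatives were DESeq2 1.42.0, limma-voom (limma 3.58.1), DESeq2 size factors, 2 filters on low counts, no minimum fold change, a prior of 1 CPM, the replicate number as a block and leaving out each library. On simulated counts of all 25093 genes with 200 changed, edgeR found 78.4% of those changed 4-fold and 27.6% of those changed 2-fold, with 9 false calls. DESeq2 found 86.3% and 42.9%, with 41 false calls, and limma-voom 71.6% and 17.3%, with 2. The 200 changed genes were drawn only from those above a minimum mean count. These shares therefore do not cover genes with few counts, such as Cphx1.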

Additional observations from a re-analysis of the deposited data

How the results depend on the processing

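The members were chosen for differing between genotypes, and their groups do not overlap. The sign of their ratios was thus all but fixed in advance, and nothing is read from it. All 106 log2 ratios of members and sums computed under the alternatives were positive. Those came from DESeq2 size factors, the 2 filters where the genes passed, the block and the prior. They also came from Gm9780 in the Plac9 sum and from leaving out each library. Raising the prior from 0.1 to 1 CPM lowered that of Plac9a and Plac9b together to 5.07, that of the 3 Plac9 copies to 5.20 and that of the Duxbl copies to 2.52, and single copies moved more, Plac9a from 4.70 to 2.72 and Duxbl3 from 2.63 to 1.06. Leaving out each library gave 5.37 to 5.88, 5.47 to 5.65 and 2.68 to 2.94, and Gm9780 ranged most among members, from 5.0 to 6.01. Across all genes, 384 were called by DESeq2, 48 with at least 10 counts in every library, and 58 to 103 when each library was left out, with the 58 reached without the third Gli3Δ/Δ library; the cause was not tested. Among the 26 neighbors the count was 3 with DESeq2 and 0 to 2 when each library was left out (1 without the first Gli3+/+ library, 2 without the second, 1 without the third). Same-numbered libraries of the 2 genotypes did not deviate together (r = -0.276, -0.0196 and -0.0642 over 14696 genes), so the numbers were not taken as pairs. Differently numbered libraries gave r from -0.241 to 0.329, the highest for Gli3+/+ 1 with Gli3Δ/Δ 2. Whether such libraries shared a batch was not tested. With the replicate number as a block, 79 genes and 0 neighbors were called. The fitted log2 fold changes of the sums were then 5.66, 5.58 and 2.82, with Plac9a at 5.37 and Duxbl3 at 3.27. Control counts were 6, 10 and 5 for Duxbl3, 0, 18 and 9 for Plac9a and 0 in all 3 libraries for Cphx1, so the depth limits these ratios.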
